A study of Mus musculus with 12 samples.

Results

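The 13 protein-coding genes of the mouse mitochondrial genome were examined in livers taken from female C57BL/6 mice at 16 weeks of age. They are the genes of the deposited table whose symbol begins with mt-, 13 of 34986, and all of them passed the filter on low values that left 19006 genes. Of the 12 mice, 6 had been given valproic acid (VPA), used against epilepsy and known for liver toxicity, and 6 had been given VPA together with obeticholic acid (VPA_OCA), a synthetic agonist of the bile acid receptor FXR. Every mouse had thus received VPA. Mice without VPA were not analysed here, and dose and duration were not given in the sources used here. Each library is 1 mouse and carries a replicate number from 1 to 6 within its treatment. Values are the authors' normalized counts, read counts scaled per library, unless FPKM (a level per transcript length and library total) is named.

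The mitochondrial genome is a small circle present in many copies per cell. It is transcribed from both strands as long precursors by a dedicated RNA polymerase. The precursors are cut into messenger, ribosomal and transfer RNAs, in most places at the transfer RNAs that lie between the coding genes. Its protein genes encode core subunits of respiratory complexes I, III and IV and of ATP synthase (complex V), and the nuclear genome supplies the other subunits and all factors for copying, transcribing and translating it. Hepatocytes are rich in mitochondria, and valproic acid is known for mitochondrial toxicity in liver.

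All 13 identifiers were found in the GENCODE M21 annotation of GRCm38 with the same start, end and strand as in the authors' table. The 22 transfer RNA and 2 ribosomal RNA genes that this annotation places on the same molecule were not analysed here. Coding genes overlap where no transfer RNA gene separates them, so a read there can belong to either gene, and how the authors' counting assigned such reads is not given in the sources used here. The ends of the 3 overlapping pairs with more than 1 shared base are shown 5′ to 3′ from the GENCODE M21 transcripts, because values of these pairs are compared further on. Capitals mark the bases shared by both genes.
mt-Atp8 (whole gene, chrM:7766-7969, plus strand): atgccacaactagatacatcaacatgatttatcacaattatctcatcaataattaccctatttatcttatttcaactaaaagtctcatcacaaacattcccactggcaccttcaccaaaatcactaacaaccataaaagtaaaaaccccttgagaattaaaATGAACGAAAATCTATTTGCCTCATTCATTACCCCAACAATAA
mt-Atp6 (first 60 bases, chrM:7927-7986, plus strand): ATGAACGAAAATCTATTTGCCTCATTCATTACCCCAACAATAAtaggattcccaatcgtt
mt-Nd4l (last 60 bases, chrM:10114-10173, plus strand): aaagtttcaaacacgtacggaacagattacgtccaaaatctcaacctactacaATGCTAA
mt-Nd4 (first 60 bases, chrM:10167-10226, plus strand): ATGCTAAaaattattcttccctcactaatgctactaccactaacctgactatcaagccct
mt-Nd5 (last 60 bases, chrM:13506-13565, plus strand): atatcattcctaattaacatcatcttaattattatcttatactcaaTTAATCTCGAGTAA
mt-Nd6 (last 60 bases, chrM:13552-13611, minus strand): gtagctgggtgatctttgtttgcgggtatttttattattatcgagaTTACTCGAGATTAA
The start codon of mt-Atp6 lies inside mt-Atp8, 43 bases before the end of mt-Atp8, which is 204 bases long. The start codon of mt-Nd4 lies 7 bases before the end of mt-Nd4l. The coding ends of mt-Nd5 and mt-Nd6 share 14 bases on opposite strands, and mt-Nd6 is the only one of the 13 on the minus strand. A single base is shared by mt-Atp6 and mt-Co3. The annotated genes mt-Co3, mt-Nd4 and mt-Cytb each leave 1 base, a T, over a multiple of 3, where polyadenylation is known to complete the stop codon.

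The remaining genes lie in the order mt-Nd1 (chrM:2751-3707), mt-Nd2 (chrM:3914-4951), mt-Co1 (chrM:5328-6872) and mt-Co2 (chrM:7013-7696) before mt-Atp8. After mt-Atp6 (chrM:7927-8607) come mt-Co3 (chrM:8607-9390), mt-Nd3 (chrM:9459-9806), mt-Nd4l (chrM:9877-10173), mt-Nd4 (chrM:10167-11544) and mt-Nd5 (chrM:11742-13565). The last are mt-Nd6 (chrM:13552-14070) and mt-Cytb (chrM:14145-15288). GC content, as the authors' table gives it, ranged from 31.86% in mt-Atp8 to 41.08% in mt-Nd4l.

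Normalized counts summed to between 20236900 and 22087700 per library. Estimated depth was 37766900 reads in VPA_OCA replicate 1 and 17879200 to 22021600 in the other libraries. Hepatocyte markers were high in every library, with a summed count of 8 markers between 2042690 and 3277940. Skeletal muscle markers, from a tissue also rich in mitochondrial RNA, summed to 731 in VPA replicate 4 and to 171 in VPA replicate 5, against 9.49 to 33.2 in the other libraries. All 10 muscle markers are in the table, and Acta1, the skeletal muscle actin, was at 164 and 24.9 in those libraries and at 0 to 3.22 elsewhere. Results are therefore also given without these libraries where they differ.

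Per length, mt-Co1 was on average the highest of the 13 and mt-Nd6 the lowest. The catalytic subunit of cytochrome c oxidase, mt-Co1, stood at 19229 ± 3954 FPKM (SD, n = 12). The other complex IV subunits followed with 16650 ± 5200 for mt-Co3 and 13119 ± 3161 for mt-Co2, and mt-Atp6, the proton channel subunit of ATP synthase, had 13657 ± 4145. The order of mt-Atp6 and mt-Co2 was not settled by the libraries, since mt-Atp6 was the higher in 4 of 12. The level of mt-Cytb, the cytochrome b of complex III, was 8815 ± 1842 FPKM.

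All 7 complex I subunits had lower mean levels per length than these 5. FPKM was 4299 ± 1322 for mt-Nd1, 4008 ± 958 for mt-Nd4, 3111 ± 655 for mt-Nd2 and 2171 ± 494 for mt-Nd4l. It was 1631 ± 525 for mt-Nd3 and 1138 ± 209 for mt-Nd5. Among these, mt-Nd1 exceeded mt-Nd4 in only 7 of 12 libraries, whereas mt-Nd4 exceeded mt-Nd2 and mt-Nd2 exceeded mt-Nd4l in all 12. At the bottom, mt-Atp8 had 192 ± 95.7 FPKM and mt-Nd6, from the other strand, 23.8 ± 8.67.

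Overlapping partners differed in FPKM by very unequal factors. In FPKM, mt-Atp6 was 50.6 to 110.5 times mt-Atp8, with a mean ratio of 78.3 ± 18.5 (SD, n = 12), although both are known to be carried on 1 messenger RNA. The gene mt-Atp8 is only 204 bases long, and how reads in its 43 shared bases were counted is not given. This ratio need therefore not be one of RNA amounts. The partners mt-Nd4 and mt-Nd4l, which also share a messenger RNA, had a ratio of 1.85 ± 0.18. The neighbours mt-Co3 and mt-Atp6 had a ratio of 1.22 ± 0.07. On opposite strands, mt-Nd5 was 53.4 ± 20.3 times mt-Nd6.

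With VPA_OCA against VPA over all 12 libraries, none of the 13 transcripts passed the test. The limma fit on log2(normalized count + 1), with Benjamini-Hochberg adjustment over 19006 genes, called 0 of 13 at an adjusted p of 0.05, where it called 0.721% of all genes. At an unadjusted p of 0.05 it also passed 0 of 13, against 9.55% of all genes. The fold changes were below 0 for 9 of 13, and their median was −0.08 on the log2 scale, against −0.0005 over all genes tested. The range of values in the VPA mice overlapped that in the VPA_OCA mice for each of the 13, and 1.44% of all genes had groups that did not overlap. In the authors' deposited table, 0 of 13 had an adjusted p below 0.05, which 5.57% of the genes they call present had. Without VPA replicates 4 and 5, limma again called 0 of 13, against 0.849% of all genes, 11 of 13 were below 0, and the median was −0.15. At an unadjusted p of 0.05, 2 of 13 passed in the authors' deposited table, mt-Nd4l (p = 0.0309) and mt-Nd4 (p = 0.0412), both lower, as 8.72% of their present genes were at that p. With a replicate block in limma 0 of 13 passed, against 1.1% of all genes, and with a term for the number set 0 of 13, against 2.13%.

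The lowest p in the limma fit belonged to mt-Nd4l, a small membrane subunit of complex I. Its lowest, median and highest normalized counts were 10760, 15200 and 20140 in the VPA mice and 9431, 12455 and 14730 in the VPA_OCA mice. Most VPA_OCA values thus lay in the lower part of the VPA range. The log2 fold change was −0.30 ± 0.16 (SE, limma), with an adjusted p of 0.62. Next came its partner mt-Nd4, a proton-pumping subunit, at 90670, 119900 and 182000 in VPA and 80270, 106700 and 123200 in VPA_OCA. Its log2 fold change was −0.29 ± 0.20 (SE), with an adjusted p of 0.73 by limma. The core subunit of the cytochrome c oxidase, mt-Co1, was closest to 0, with a log2 fold change of −0.01 and a 95% limma interval from −0.64 to 0.61.

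**Figure D1:**
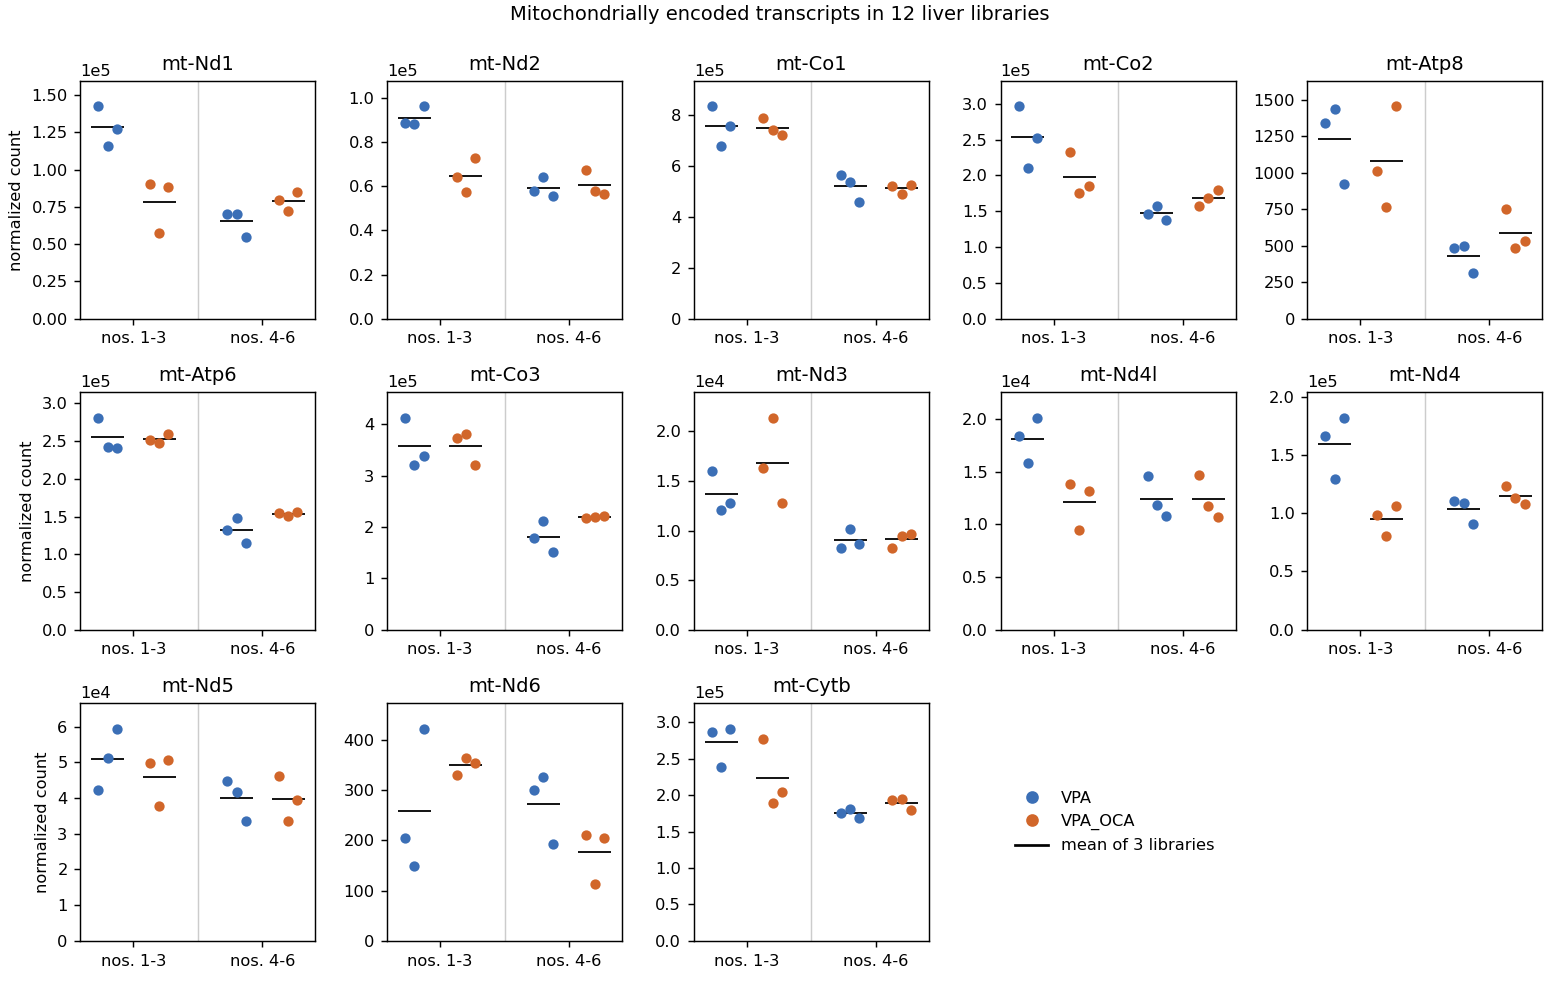
Normalized count (vertical axis, from 0) of each of the 13 transcripts in 12 liver libraries, in genome order, with VPA in blue and VPA_OCA in orange, each point 1 mouse and each line the mean of 3. In replicate numbers 1 to 3 the VPA points lie above the VPA_OCA points for mt-Nd1, mt-Nd2, mt-Nd4l and mt-Nd4, and the numbers 4 to 6 lie below the numbers 1 to 3 in both treatments for mt-Co1, mt-Atp8, mt-Atp6, mt-Co3 and mt-Nd3.

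The libraries fell into replicate numbers 1 to 3 and 4 to 6, a division that was noticed in these data and for which no label gives a meaning. Within numbers 1 to 3, 4 of the 7 complex I transcripts were lower in every VPA_OCA mouse than in any VPA mouse. These were mt-Nd1, mt-Nd2, mt-Nd4l and mt-Nd4, and no other member separated the treatments there. Since mt-Nd4l and mt-Nd4 share a messenger RNA, they are not independent in this count. Over all genes tested, 8.62% were lower without overlap in this comparison and 18.6% were separated in either direction.

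For mt-Nd1, which lies where ubiquinone is bound in complex I, VPA replicates 1 to 3 had 142300, 115500 and 127100 normalized counts. The VPA_OCA replicates 1 to 3 had 90120, 57590 and 88010. The highest VPA_OCA value thus lay below the lowest VPA value, and the log2 fold change was −0.73 ± 0.24 (SE, limma; adjusted p = 0.26). For mt-Nd2, another membrane subunit, the values were 88860, 88380 and 96190 in VPA and 64040, 57240 and 72760 in VPA_OCA. Its log2 fold change was −0.50 ± 0.20 (SE, limma; adjusted p = 0.33). In mt-Nd2 the VPA mice were close together, and the gap to the VPA_OCA mice was wider than the spread of VPA.

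The overlapping pair showed the same order of groups. For mt-Nd4, VPA replicates 1 to 3 had 166500, 129000 and 182000 and VPA_OCA replicates 1 to 3 had 98850, 80270 and 105800, a log2 fold change of −0.74 ± 0.24 (SE, limma; adjusted p = 0.25). For mt-Nd4l the counts were 18370, 15820 and 20140 against 13840, 9431 and 13140, a log2 fold change of −0.59 ± 0.17 (SE, limma; adjusted p = 0.20). Replicate 2 of VPA_OCA was the lowest of the 6 libraries in all 4 genes. By limma in these 6 libraries, 4 of 13 members had an unadjusted p below 0.05, against 12.4% of all genes, and 0 of 13 passed after adjustment, against 0.637%. The overlapping pair, which shares a messenger RNA, is among the 4.

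Within replicate numbers 4 to 6, the complex I transcripts did not separate in that direction. Here 4 of 13 members were higher without overlap in VPA_OCA, mt-Nd1, mt-Co2, mt-Atp6 and mt-Co3, while 9.53% of all genes were. Of the 3 VPA libraries here, replicates 4 and 5 hold the muscle transcripts given above. The remaining VPA replicate 6 had the lowest summed share of the 13 transcripts of any library, 5.84%. In this set the Kupffer cell markers summed to 5982 ± 1413 in VPA and 4296 ± 768 in VPA_OCA, and the endothelial markers to 2583 ± 51.6 and 1834 ± 363, and their part in these values was not tested. Against VPA replicate 6 alone, all VPA_OCA libraries were higher for 10 of 13 members, those 4 among them, and for 27.4% of all genes. The counts of mt-Nd1 were 70240, 70470 and 54930 in VPA and 79770, 72120 and 85260 in VPA_OCA, a log2 fold change of 0.28 ± 0.18 (SE, limma; adjusted p = 0.62). Those of mt-Nd4 were 110800, 108600 and 90670 in VPA and 123200, 112900 and 107600 in VPA_OCA, so that the groups overlapped. For mt-Nd2 the log2 fold change was 0.04, and for mt-Nd4l it was 0.00 when rounded. By limma in these 6 libraries 0 of 13 passed after adjustment, against 0.5% of all genes. At an unadjusted p of 0.05 limma passed 1 of 13, mt-Nd6, which was lower, against 11.3% of all genes.

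The difference between both treatment effects was tested as an interaction in limma over all 12 libraries, and 0 of 13 members passed, as did 0.0105% of all genes. At an unadjusted p of 0.05, 5 of 13 passed, against 8.36% of all genes. The interaction is the log2 fold change in numbers 4 to 6 minus that in numbers 1 to 3. It was 1.01 for mt-Nd1, from −0.73 to 0.28 (95% interval 0.37 to 1.66, adjusted p = 0.43 by limma). It was 0.89 for mt-Nd4, from −0.74 to 0.15 (0.25 to 1.53, adjusted p = 0.48 by limma), 0.59 for mt-Nd4l, from −0.59 to 0.00 when rounded, and 0.54 for mt-Nd2, from −0.50 to 0.04. For mt-Nd6 the interaction was −1.21, in the opposite direction. All 5 are complex I genes, and mt-Nd4l and mt-Nd4 among them share a messenger RNA. The other complex I members, mt-Nd3 and mt-Nd5, had interactions of −0.26 and 0.13. Without VPA replicates 4 and 5, which leaves 1 VPA library in numbers 4 to 6 that is assumed to vary like the others, 0 of 13 passed, against 0.00544% of all genes, and 4 of 13 had an unadjusted p below 0.05, against 5.61%. The interaction of mt-Nd1 was then 1.25 (adjusted p = 0.73 by limma) and that of mt-Nd6 −0.75.

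**Figure D2:**
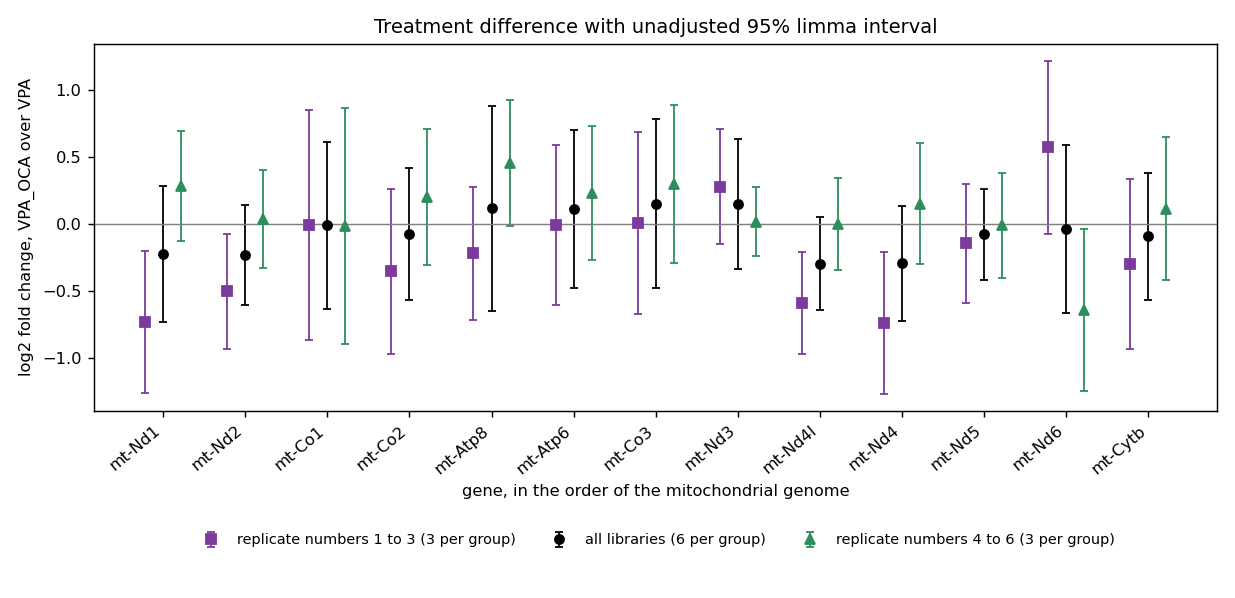
Log2 fold change of VPA_OCA over VPA (vertical axis) for the 13 genes in genome order, over all libraries (black circles, 6 per group) and within replicate numbers 1 to 3 (purple squares) and 4 to 6 (green triangles, 3 per group each). Bars are unadjusted 95% limma intervals; those of mt-Nd1, mt-Nd2, mt-Nd4l and mt-Nd4 lie below 0 in numbers 1 to 3, and that of mt-Nd6 lies below 0 in numbers 4 to 6.

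The remaining complex I transcripts did not separate the treatments in numbers 1 to 3. The counts of mt-Nd3, a small subunit, were 16010, 12090 and 12820 in VPA replicates 1 to 3 and 16250, 21370 and 12780 in VPA_OCA replicates 1 to 3. The VPA_OCA replicate 2 that was lowest for mt-Nd4 thus had the highest mt-Nd3 count of all 12 libraries. In numbers 4 to 6, mt-Nd3 lay between 8190 and 10140 in both treatments, and its overall log2 fold change was 0.15 (adjusted p = 0.91 by limma). For mt-Nd5, the largest subunit, the lowest, median and highest counts were 33650, 43585 and 59410 in VPA and 33670, 42905 and 50580 in VPA_OCA, so the lowest values were nearly equal and the highest was in VPA.

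The light-strand product mt-Nd6 had the lowest mean count of all members, and whether read number has a part in its spread was not tested. Its counts were 205.6, 148.0 and 421.9 in VPA replicates 1 to 3 and 329.4, 363.0 and 354.5 in VPA_OCA. In numbers 4 to 6 they were 300.2, 326.3 and 191.8 in VPA and 211.0, 113.8 and 204.3 in VPA_OCA. The VPA values overlapped the VPA_OCA values in both sets, and the overall log2 fold change was −0.04 (95% limma interval −0.66 to 0.59).

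The members of complexes III, IV and V overlapped between the treatments. For mt-Co3, the lowest, median and highest counts were 150900, 266350 and 412700 in VPA and 218400, 271050 and 380800 in VPA_OCA, a log2 fold change of 0.15 (adjusted p = 0.94 by limma). In numbers 4 to 6 its counts were 178500, 211200 and 150900 in VPA and 218400, 218800 and 221400 in VPA_OCA, so the VPA_OCA mice were nearly equal and all above the VPA mice. For mt-Atp6 the same comparison gave 132300, 148000 and 115100 against 155000, 150900 and 156000. In numbers 1 to 3, by contrast, mt-Atp6 stood at 281200, 242700 and 240700 in VPA and 251900, 247600 and 259000 in VPA_OCA, and the treatments overlapped.

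The count of mt-Co2, the subunit that takes electrons from cytochrome c, ranged over 138200, 183900 and 296300 (lowest, median, highest) in VPA and 158000, 177450 and 232600 in VPA_OCA. That of mt-Cytb ranged over 169000, 210050 and 291300 in VPA and 180300, 194350 and 277700 in VPA_OCA. The overall log2 fold changes were −0.08 and −0.09, with adjusted p values of 0.97 and 0.96 by limma. For mt-Atp8, an accessory subunit of ATP synthase, VPA counts ran from 312.0 to 1436 and VPA_OCA counts from 484.2 to 1455. Its 95% limma interval was the widest of the 13, from −0.65 to 0.88 around a log2 fold change of 0.12.

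Members transcribed as parts of the same precursor did not keep a fixed ratio across libraries. The ratio of mt-Co3 to mt-Nd4, chosen after the values were seen, was 2.48, 2.49 and 1.86 in VPA replicates 1 to 3 and 3.76, 4.74 and 3.03 in VPA_OCA replicates 1 to 3. It was 1.61, 1.94 and 1.66 in VPA replicates 4 to 6 and 1.77, 1.94 and 2.06 in VPA_OCA replicates 4 to 6. The VPA_OCA replicates 1 to 3 therefore lay above the other 9 libraries. As a share of the 13 transcripts, mt-Nd4 made up 4.53 ± 0.60% in VPA_OCA replicates 1 to 3 (SD, n = 3), against 6.74 ± 0.80% in VPA replicates 1 to 3. In replicates 4 to 6 that share was 7.34 ± 0.46% with VPA_OCA and 7.16 ± 0.19% with VPA.

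Across the 12 libraries the log2 values of mt-Atp6 and mt-Co3 had the highest correlation of any pair of members (Pearson r = 0.98). Those of mt-Nd4l and mt-Nd4 had r = 0.91 and those of mt-Nd1 and mt-Nd2 had r = 0.90. Over the same 12 libraries, mt-Co3 and mt-Nd4 had r = 0.31, and mt-Nd3 and mt-Nd4 had r = −0.03. With the sum of all members, mt-Nd6 had the lowest correlation (r = 0.30) and mt-Co1, the most abundant, the highest (r = 0.96). These coefficients describe the 12 libraries, share each library's scaling factor, and include the difference between the number sets.

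Summed, the 13 transcripts took 8.86 ± 2.40% of all normalized counts in VPA and 8.60 ± 1.51% in VPA_OCA (SD, n = 6 each). The difference of −0.26 percentage points was smaller than the spread in either group. It was −1.07 points within numbers 1 to 3 and 0.55 points within numbers 4 to 6, and −1.08 points without VPA replicates 4 and 5. By set, the share was 10.97 ± 0.67% in VPA replicates 1 to 3, 6.75 ± 0.79% in VPA replicates 4 to 6, 9.90 ± 0.80% in VPA_OCA replicates 1 to 3 and 7.31 ± 0.19% in VPA_OCA replicates 4 to 6. In bulk liver, fewer cells of a type and less RNA per cell cannot be told apart.

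**Figure D3:**
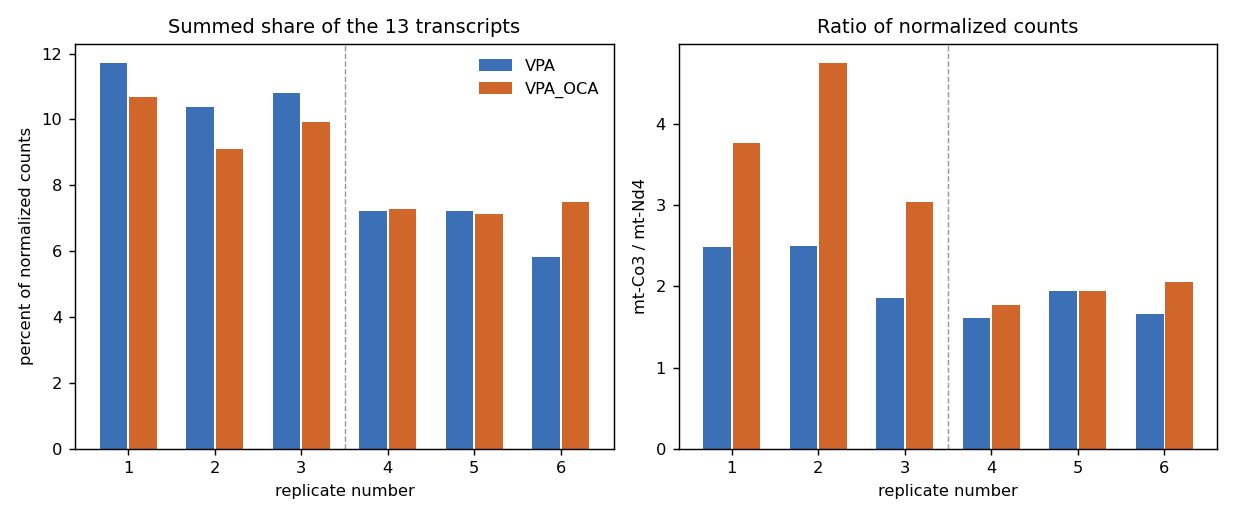
Left, summed share of the 13 transcripts in all normalized counts (percent) and right, ratio of mt-Co3 to mt-Nd4 normalized counts, each against replicate number, 1 bar per mouse, VPA in blue and VPA_OCA in orange. The dashed line divides numbers 1 to 3 from 4 to 6; all shares left of it exceed all shares right of it, and the ratio is highest in VPA_OCA replicates 1 to 3.

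The difference between numbers 4 to 6 and 1 to 3 is described without a test. All 13 members were lower on average in numbers 4 to 6, with a median log2 difference of −0.47, against 0.01 over 11468 nuclear genes with a mean log2 value above 5. The 6 libraries of numbers 4 to 6 lay wholly below the other 6 for 5 of 13 members, mt-Co1, mt-Atp8, mt-Atp6, mt-Co3 and mt-Nd3, and for 4.97% of all genes. Without VPA replicates 4 and 5 the median was −0.59 and the count was again 5, against 6.51% of all genes in these libraries. The largest difference was in mt-Atp8, with 1340, 1436 and 923.8 counts in VPA replicates 1 to 3 and 487.6, 495.7 and 312.0 in VPA replicates 4 to 6. In the VPA_OCA mice, mt-Atp8 had 1016, 763.4 and 1455 counts in numbers 1 to 3 and 752.9, 484.2 and 534.2 in numbers 4 to 6. With the log2 differences averaged over both treatments, mt-Atp8 was 2.27-fold lower in numbers 4 to 6, followed by mt-Co3 (1.80-fold), mt-Atp6 (1.78-fold) and mt-Nd3 (1.65-fold).

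The set difference was also taken within each treatment. In the VPA mice, 11 of 13 members were lower without overlap in numbers 4 to 6, all except mt-Nd5 and mt-Nd6, against 15.1% of all genes. In the VPA_OCA mice 6 of 13 were lower, against 15.9% of all genes, and mt-Nd4 was higher, as 16.4% of all genes were. The 6 were mt-Co1, mt-Atp8, mt-Atp6, mt-Co3, mt-Nd3 and mt-Nd6. For mt-Nd1 the log2 difference was −0.98 in VPA and 0.03 in VPA_OCA, and for mt-Nd4 it was −0.61 and 0.28. For mt-Co1, by contrast, it was −0.54 in VPA and −0.55 in VPA_OCA, and for mt-Nd3 it was −0.59 and −0.86. The interaction given above is the test of these treatment differences, and it passed for 0 of 13.

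Marker sums of several cell types also moved between the sets. The 5 Kupffer cell markers, of the liver's resident macrophages, summed to 3427 ± 598 in VPA replicates 1 to 3 and 5982 ± 1413 in VPA replicates 4 to 6, with none of them at 0 throughout. In the VPA_OCA mice they summed to 4200 ± 1168 and 4296 ± 768. The 4 endothelial markers summed to 1684 ± 167 and 2583 ± 51.6 in VPA, and to 1861 ± 247 and 1834 ± 363 in VPA_OCA. Between the treatments 1 of these 4, Lyve1, passed with a term for the number set, against 2.13% of all genes. It had 164 ± 32.5 counts in VPA and 105 ± 23.5 in VPA_OCA (SD, n = 6 each), a log2 fold change of −0.64. Its adjusted p by limma was 0.031 with that term and 0.12 without it. The 4 stellate cell markers summed to 3189 ± 557 and 4152 ± 242 in VPA, and to 2902 ± 429 and 3575 ± 243 in VPA_OCA, higher in numbers 4 to 6 in both treatments. The 8 hepatocyte markers summed to 2552210 ± 344853 and 2917130 ± 308352 in VPA, and to 2216810 ± 158135 and 3106990 ± 181286 in VPA_OCA (SD, n = 3 each). The 5 red cell markers were lower in numbers 4 to 6, at 19259 ± 5970 and 14639 ± 4764 in VPA and 19816 ± 7674 and 13217 ± 3753 in VPA_OCA. Sums weigh the most abundant markers most. Taken singly and averaged over the treatments, 1 of 4 stellate cell and 2 of 8 hepatocyte markers were lower in numbers 4 to 6. So were 0 of 5 Kupffer cell, 0 of 4 endothelial and 5 of 5 red cell markers. The part of these differences in the mitochondrial values was not tested.

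The members are poor in G and C, and low-GC nuclear genes were also lower in numbers 4 to 6. Among the 11468 nuclear genes, the median log2 difference was −0.37 at a GC content of 35% to 40%, −0.21 at 40% to 45%, 0.10 at 50% to 55% and 0.32 above 60%. In the GC range of the members there were 574 nuclear genes, with a median of −0.34 and quartiles of −0.51 and −0.17, and 89.7% of them were below 0. These genes match the members by range only, as their median GC fraction was 0.397, against 0.371 in the members. Of the members, 7 lay within those quartiles, 5 below the lower quartile and mt-Nd4 (−0.17) just above the upper one. The 5 were mt-Atp8 (−1.18), mt-Co3 (−0.85), mt-Atp6 (−0.84), mt-Nd3 (−0.73) and mt-Co1 (−0.54). After a loess correction for GC content in each library, the median of the 13 was −0.06, 8 were below 0, and mt-Atp8 (−0.64), mt-Co3 (−0.48) and mt-Atp6 (−0.38) remained the lowest. Only 10 nuclear genes had a GC content up to 35%, where mt-Atp8, mt-Nd3 and mt-Nd6 lie, so the correction is least certain for these.

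**Figure D4:**
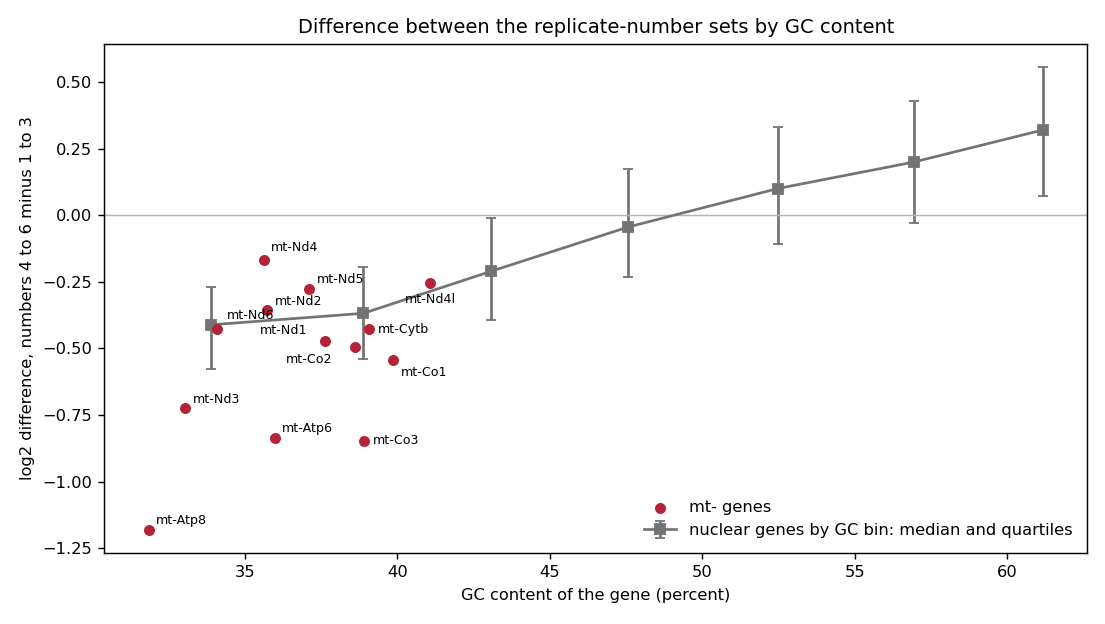
Log2 difference of replicate numbers 4 to 6 minus 1 to 3 (vertical axis) against GC content in percent (horizontal axis) for the 13 mt- genes (red points, named) and for 11468 nuclear genes in GC bins (grey squares, median with quartiles). The medians climb from −0.41 in the lowest bin to 0.32 in the highest, and mt-Atp8, mt-Co3 and mt-Atp6 lie well below the bins of their GC content.

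None of the nuclear genes listed for expression of the mitochondrial genome passed the test between treatments. In lists for transcription (10 genes), replication and maintenance (13), RNA processing (33), translation factors (12), aminoacyl-tRNA synthetases (22) and biogenesis regulators (13), limma called 0 of 103, against 0.721% of all genes. Their median log2 fold change was 0.02. It also called 0 of 78 mitochondrial ribosomal proteins, and of the nuclear subunits 0 of 37 for complex I, 0 of 9 for complex III, 0 of 12 for complex IV and 0 of 18 for complex V. With a term for the number set, 1 of these passed, against 2.13% of all genes. It was the complex I subunit gene Ndufa8. It had 1778 ± 106 counts in VPA and 2389 ± 362 in VPA_OCA (SD, n = 6 each), a log2 fold change of 0.41 ± 0.10 (SE) whose adjusted p by limma was 0.021 with that term and 0.078 without it.

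Of the regulators, Tfam, which packages mitochondrial DNA and is needed at its promoters, had 1004 ± 209 counts in VPA and 1110 ± 298 in VPA_OCA (adjusted p = 0.88 by limma). By set it had 1183 ± 83.7 in VPA replicates 1 to 3 and 825 ± 81.4 in VPA replicates 4 to 6, and 1339 ± 254 and 881 ± 17.1 in VPA_OCA. Its 6 values in numbers 1 to 3 (1060 to 1555) thus lay above all 6 in numbers 4 to 6 (745.6 to 908.2). Such an order without overlap was also seen in 5 of 13 members, and in 4.97% of all genes. The initiation factor gene Tfb2m followed the same order, at 616.3 to 814.4 against 496.8 to 608.1. Its GC content is 42.8% and that of Tfam 43.6%, and after the GC correction their log2 set differences went from −0.38 to −0.17 and from −0.55 to −0.38. The aminoacyl-tRNA synthetase gene Lars2 had the opposite order, with 8583 to 14580 counts in numbers 1 to 3 and 14760 to 28000 in numbers 4 to 6. The log2 set difference of Lars2 was 0.91, and 0.88 after the GC correction.

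The polymerase gene Polrmt was also higher on average in numbers 4 to 6, with 309 ± 53.5 counts in numbers 1 to 3 and 401 ± 33.1 in numbers 4 to 6 (SD, n = 6 each). Its GC content is 59.0%, and the GC correction took its log2 set difference from 0.39 to 0.13. The messenger RNA stability factor gene Lrpprc had 1934 ± 143 and 2164 ± 164, and the coactivator gene Ppargc1a 319 ± 66.5 and 249 ± 42.4. The correction took the log2 set difference of Lrpprc from 0.16 to 0.21 and that of Ppargc1a from −0.35 to −0.31. Between the treatments, limma gave adjusted p values of 0.88 for Polrmt, 0.67 for Lrpprc, 0.81 for Ppargc1a and 0.97 for Tfb2m. The log2 set differences of the nuclear oxidative phosphorylation subunits were below 0 for 31 of 37 in complex I, 8 of 9 in complex III, 10 of 12 in complex IV and 15 of 18 in complex V. Their medians lay between −0.38 and −0.15, against 0.01 over the 11468 nuclear genes, whose quartiles were −0.21 and 0.27. Of the 78 mitochondrial ribosomal proteins 66 were below 0, with a median of −0.18. The median GC content of these lists was 50.2% to 52.7%. After the GC correction the medians were −0.30 for complex I, −0.29 for complex III, −0.37 for complex IV and −0.23 for complex V. That of the ribosomal proteins was −0.27, and that of the nuclear genes −0.01. The lists for expression of the mitochondrial genome were mixed before this correction. Below 0 were 7 of 10 transcription genes (median −0.21), 7 of 13 biogenesis regulators (−0.11) and 18 of 33 RNA processing genes (−0.003). So were 5 of 13 replication and maintenance genes (0.06), 5 of 12 translation factors (0.02) and 7 of 22 aminoacyl-tRNA synthetases (0.12).

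The nuclear genes whose log2 values followed the summed mitochondrial share most closely over the 12 libraries, among the 11468, were Olfr46 (Pearson r = 0.97), Sh3bgrl (0.96), Naa15 (0.96), Cdc73 (0.95) and Atad2b (0.95). All 5 were lower in numbers 4 to 6, with log2 differences from −1.28 for Olfr46 to −0.26 for Atad2b. Olfr46 had 45.8 to 89.4 counts in numbers 1 to 3 and 22.5 to 34.1 in numbers 4 to 6. These coefficients are a description over 12 libraries that contain the set difference.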

How the data were processed

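A single table covers the liver RNA of all 12 mice, 6 in each treatment. Groups and replicate numbers come from the sample titles, and every per-sample column was used (0 unused). Per the file headers, the authors deposited normalized counts (a scaled signal for each gene) and FPKM. The authors' table also holds p-values, adjusted p-values, log2 ratios, a GC fraction and a gene width, per the file headers. The submitters' processing notes name edgeR, without a version, and GRCm38.p5. The aligner, counter, annotation and use of strand were not given in the sources used here.

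Some cells held a comma as decimal sign with an exponent and read 1000 times too large (10536 of the log2 ratios, 238 of the p-values and 88 of the adjusted ones, with a few per-library values). They were divided by 1000, and 0 of them were in mt- genes. Of the low values (up to 20 steps), 79.6% to 84.6% per library lay within 0.1 of a whole multiple of 1 step, too few to recover whole reads, and limma was used in place of a count model. The filter kept genes that reached a value of 1 in 6 or more libraries. log2(value + 1) was fitted with limma 3.58.1 in R 4.3.3 (intensity trend, group as the only term, 2-sided) with Benjamini-Hochberg adjustment over all 19006 genes at 0.05. The fit was tested on simulated data. Fold changes are on the log2(value + 1) scale, and intervals are unadjusted. GC correction was a loess fit (span 0.4) per library. Figures were drawn with matplotlib 3.10.9.

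Members, gene lists, the number sets and the ratio of mt-Co3 to mt-Nd4 were chosen with earlier results of these data known. Named are all members, Tfam, Polrmt, Tfb2m, Lrpprc and Ppargc1a, list genes past the threshold, and the 5 genes most correlated with the summed share. Lars2 is also named, because its set difference had the opposite sign to that of Tfam. Libraries with the same replicate number in both treatments had correlated deviations from the group means (r = 0.15 to 0.48 over genes, all above 0.1). These deviations contain the difference between the number sets, so the correlations cannot tell pairs of mice from sets. No label pairs the libraries, so the main fit held no pairing, and a replicate block was run as an alternative. The best partner carried the same number for only 2 of 6, and for the others it carried another number of the same set. Alternatives were other filters, scalings, pseudocounts of 0.1 and 5, FPKM, limma without trend or with array weights, the replicate block, a term for the number set, each set alone, GC correction, each library left out, and VPA replicates 4 and 5 left out. The alternatives of the interaction, and the set difference and the comparison within numbers 4 to 6 without VPA replicates 4 and 5, were added after seeing the data.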

Additional observations from a re-analysis of the deposited data

Results flagged for a closer look

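Of 32 groups of values examined, 2 held a library far from the other 5 of its group, and chance alone flags about 1 group in 20. VPA_OCA replicate 1 had 232600 normalized counts of mt-Co2, where the other VPA_OCA libraries had 158000 to 185400. It also had 277700 of mt-Cytb, where the others had 180300 to 205100. This library also had the greatest estimated depth, 37766900 reads, and whether depth has a part in these values was not tested.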

How the results depend on the processing

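In every alternative run, 0 of 13 members and 0 of 103 nuclear expression genes passed in the comparison of treatments, and 0 of 13 in the interaction. Leaving out each library in turn gave 0 to 0 for each of these counts. With the replicate block 0 of 13 passed, and the lowest adjusted p, that of mt-Nd4l, was 0.35 by limma; the block changed no call. Adjusted p over the alternatives ranged from 0.20 to 1 for mt-Nd4l and from 0.25 to 0.87 for mt-Nd4. The median log2 set difference of −0.47 became −0.22 within VPA_OCA alone and −0.063 after GC correction.

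Signs of the log2 fold change turned in numbers 4 to 6 alone for mt-Nd1 (0.28), mt-Nd2 (0.038), mt-Co2 (0.20), mt-Nd4 (0.15) and mt-Cytb (0.11). In numbers 1 to 3 alone they turned for mt-Atp8 (−0.22), mt-Atp6 (−0.0081) and mt-Nd6 (0.57). Without VPA replicates 4 and 5 they turned for mt-Atp8 (−0.15), mt-Atp6 (−0.080), mt-Co3 (−0.035) and mt-Nd6 (0.13). With each library left out, the ranges that crossed 0 were −0.10 to 0.072 for mt-Co1, −0.17 to 0.049 for mt-Co2, −0.12 to 0.32 for mt-Atp8, −0.021 to 0.24 for mt-Atp6, −0.014 to 0.26 for mt-Nd3, −0.16 to 0.0033 for mt-Nd5 and −0.19 to 0.18 for mt-Nd6. The difference in summed share ranged from −0.87 to 0.31 percentage points. The cause of these turns was not tested. The lowest mean counts of all members were those of mt-Nd6 and mt-Atp8, and whether read number has a part in their turns was not tested.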
